A study of Sus scrofa with 16 samples.

Results

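The 10 genes followed here encode enzymes of collagen crosslinking and hydroxylation: the lysyl oxidases LOX, LOXL1, LOXL2, LOXL3 and LOXL4, the lysyl hydroxylases PLOD1, PLOD2 and PLOD3, and the prolyl 4-hydroxylase alpha subunits P4HA1 and P4HA2. They were taken by gene name from a table of 29552 named genes, and all 10 had counts in all 16 libraries. The cells were interstitial cells, the fibroblast-like residents of the valve leaflet, isolated from aortic valves of pigs aged 5 to 6 months. There were 4 groups of n = 4 libraries: female cells on tissue culture plastic, female cells on a PEG-norbornene hydrogel of about 5.8 kPa, male cells on plastic and male cells on the gel. The labels call the cells on plastic myofibroblasts and those on gel fibroblasts. All groups shared Media 199 with 1% serum and the same antibiotics and antifungal (penicillin, streptomycin and amphotericin B), were kept for 48 hours, and carried no genetic change that the labels name. The cells were cultured outside the leaflet, and the labels do not say whether a replicate was 1 pig or a pool.

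Collagen chains are modified inside the cell before they are secreted and joined outside it. Prolyl 4-hydroxylase, a tetramer of alpha subunits with P4HB, hydroxylates prolines and so lets the triple helix hold at body temperature. Lysyl hydroxylases add hydroxyl groups to lysines, which fixes the kind of crosslink that can form, and lysyl oxidases, copper enzymes of the extracellular space, turn lysines and hydroxylysines into the aldehydes from which crosslinks arise. In the valve these crosslinks hold the collagen layer that bears the load of closure, and stiffening of that layer is a feature of valve fibrosis.

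Library totals ran from 16.93 to 27.48 M counts (mega-counts), with the lowest in male gel 2. The 10 enzymes together took 0.268% to 0.330% of the counts of a library on female plastic, against 0.326% to 0.393% on female gel. They took 0.252% to 0.272% on male plastic, against 0.319% to 0.388% on male gel. Sums of the 9 interstitial cell and fibroblast markers, all tested, are given in counts per M counts of the library (CPM). They ran from 35500 to 42200 CPM on female plastic against 27900 to 34800 CPM on female gel. On male plastic they ran from 36800 to 43900 CPM, against 29900 to 34400 CPM on male gel. COL3A1 and FBN1 of this list were called higher on plastic in each sex, and DCN and LUM lower. All 6 myofibroblast markers were called higher on plastic in each sex. Endothelial markers, 13 of 13 tested, summed to 212 to 580 CPM on female plastic against 179 to 287 CPM on female gel. On male plastic they summed to 200 to 339 CPM, against 156 to 273 CPM on male gel. Of these 13, 3 were called higher on plastic in female and 2 in male cells, and 0 lower. The shares of all tested genes called higher were 12.7% and 12.9%. The median log2 change of the 13 was 0.84 in female and 0.43 in male cells. The 10 leukocyte markers, of which 3 were tested, summed to 8.67 to 38.5 CPM on female plastic against 11.6 to 14.6 CPM on female gel. On male plastic the sum was 8.27 to 17.8 CPM, against 5.76 to 13.1 CPM on male gel. The T cell gene CD3E was at 0 in all 4 groups. LAPTM5 was called higher on plastic in each sex (means 13.47 against 3.05 CPM in female and 7.882 against 1.529 CPM in male cells). CD14 was called lower in each sex (3.625 against 9.575 CPM and 3.707 against 8.57 CPM), and CD68 was not called. Cardiac and skeletal muscle markers summed to 40.6 to 171 CPM on plastic against 0.904 to 2.38 CPM on gel, with the cardiac troponin TNNT2 at 0 in all 4 groups. On plastic most of the sum came from DES, a filament gene of contractile cells (90.3 CPM on female plastic against 0.298 on female gel, and 103 CPM on male plastic against 0.231 on male gel). Epithelial and erythroid markers did not exceed 0.452 CPM in any library.

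Between surfaces the enzymes moved in opposite directions. In female cells 4 were called higher on plastic (LOX, LOXL3, LOXL4 and PLOD2) and 3 lower (LOXL2, PLOD1 and P4HA2), where 12.7% of all 14530 tested genes were called higher and 11.3% lower. In male cells the same 4 were called higher, and LOXL2, PLOD1, P4HA2 and P4HA1 lower, where 12.9% of tested genes were called in each direction. A gene is called where edgeR's quasi-likelihood test, with Benjamini-Hochberg adjustment across the whole table, gives an adjusted p under 0.05, and changes are log2 differences of plastic minus gel with their standard errors (SE). The median change of the 10 enzymes was 0.18 in female and 0.34 in male cells, against -0.04 and -0.03 for all tested genes. In these bulk libraries a change in the number of cells of a type cannot be told apart from a change of RNA per cell.

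**Figure D1:**
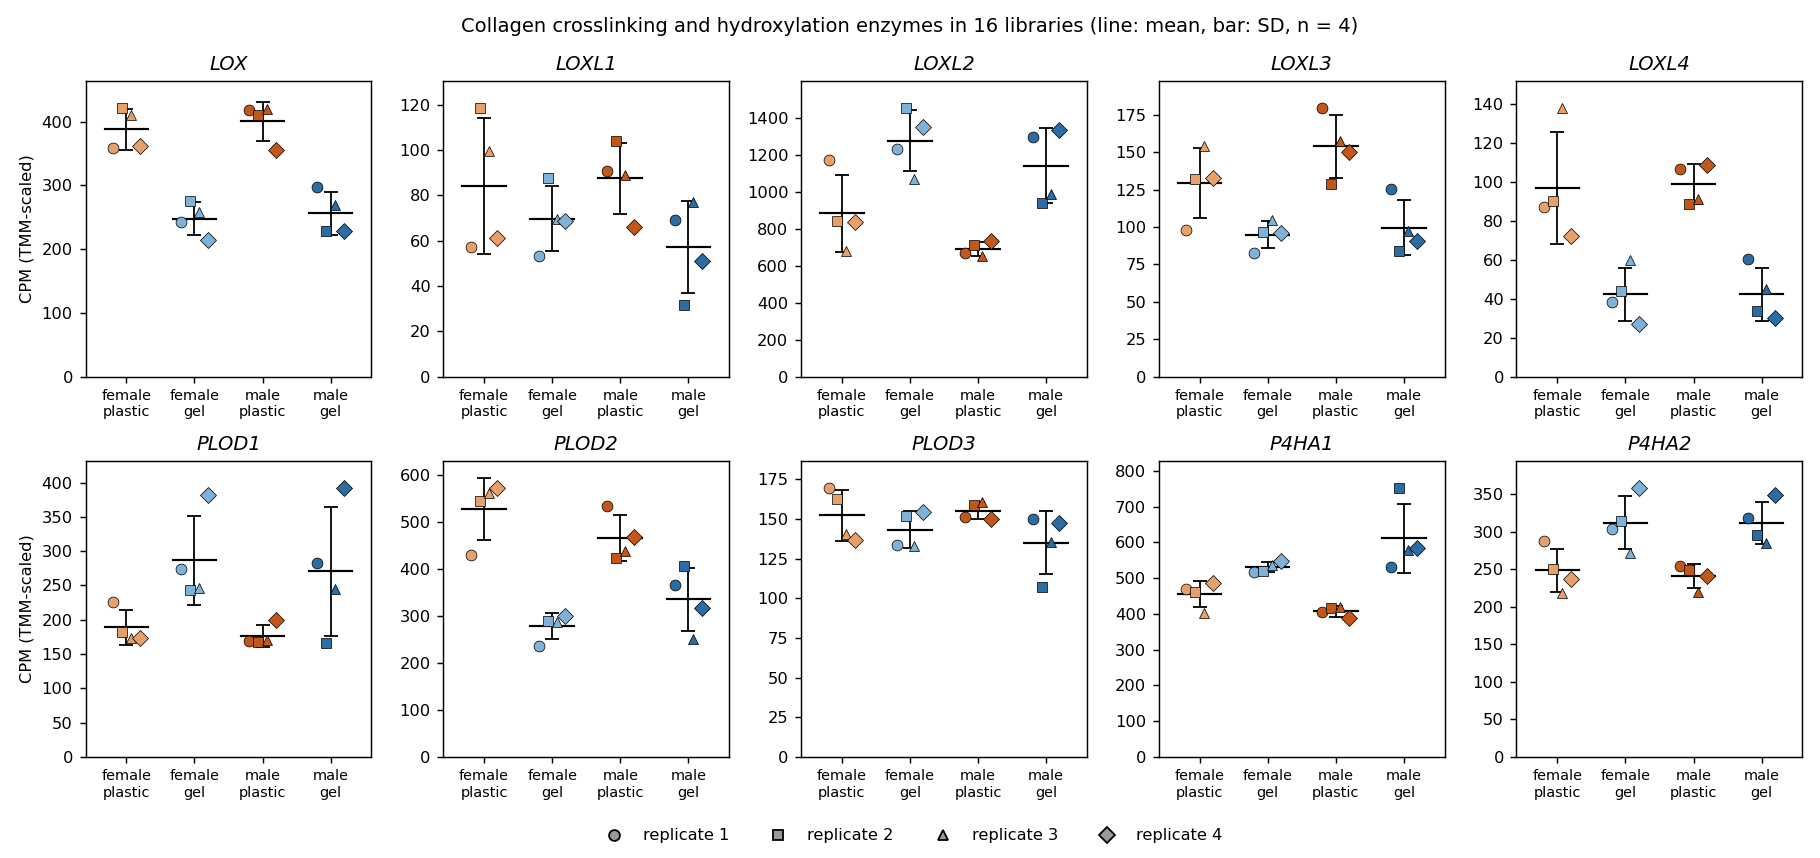
Level of each enzyme gene in every library, in CPM scaled by TMM (trimmed mean of M-values) on an axis from 0, for female plastic, female gel, male plastic and male gel. Symbols mark the replicate number, lines the group mean and bars the SD (n = 4). LOX and LOXL4 stand higher on plastic than on gel in each sex without overlap, and LOXL2 stands lower on plastic, with overlap in female cells.

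LOX is the founding lysyl oxidase and acts on collagen and elastin (chromosome 2, 125595115 to 125607026, Sscrofa11.1). Its level in replicates 1 to 4 was 359, 421, 410 and 362 CPM on female plastic, against 243, 276, 259 and 214 CPM on female gel. On male plastic it was 418, 410, 419 and 355 CPM, against 298, 229, 269 and 228 CPM on male gel. Every plastic library lay above every gel library of either sex. The change was 0.65 in female cells (SE 0.11, adjusted p = 0.000374, edgeR) and 0.65 in male cells (SE 0.11, adjusted p = 0.000371, edgeR), higher in 4 of 4 replicates of each sex. Over the 4 groups the order of the means was male plastic, female plastic, male gel and female gel, with the sexes overlapping on each surface.

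LOXL4 showed the largest change of the 10 enzymes in each sex. It is a lysyl oxidase with scavenger receptor domains (chromosome 14, 109571942 to 109593408). It had 87.0, 90.4, 138 and 72.0 CPM on female plastic, against 38.4, 44.0, 59.8 and 27 CPM on female gel. It had 107, 88.9, 91.1 and 109 CPM on male plastic, against 60.4, 33.6, 45.1 and 30.3 CPM on male gel. The groups did not overlap in either sex. The mean on plastic was 2.29 times that on gel in female cells (log2 change 1.2, SE 0.25, adjusted p = 0.00208, edgeR) and 2.33 times in male cells (1.22, SE 0.25, adjusted p = 0.0017, edgeR). Of all tested genes, 91.6% had a smaller change in female and 91.5% in male cells.

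LOXL2 went the other way. This paralog, known for crosslinking collagen IV and also placed in the scavenger receptor group (chromosome 14, 7435861 to 7540699), had 1169, 842, 678 and 838 CPM on female plastic, against 1230, 1452, 1066 and 1351 CPM on female gel. On male plastic it had 667, 711, 651 and 731 CPM, against 1297, 941, 988 and 1333 CPM on male gel. Male plastic lay below male gel throughout, whereas female plastic 1 exceeded female gel 3. The change was -0.53 in female cells (SE 0.16, adjusted p = 0.0203, edgeR) and -0.72 in male cells (SE 0.16, adjusted p = 0.00271, edgeR), lower on plastic in 4 of 4 replicates of each sex. The female call was lost without female plastic 2, 3 or 4 or female gel 2 or 4, with values of -0.51, -0.43, -0.51, -0.46 and -0.50 and adjusted p from 0.0501 to 0.0683 in edgeR. LOXL2 and LOXL4 lie on the same chromosome and changed in opposite directions.

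LOXL3, the third scavenger receptor paralog (chromosome 3, 68498114 to 68516829), was also called higher on plastic in each sex. It had 97.8, 132, 154 and 133 CPM on female plastic, against 82.6, 96.4, 105 and 95.9 CPM on female gel. It had 180, 129, 158 and 150 CPM on male plastic, against 126, 84.2, 97.5 and 90.6 CPM on male gel. The male groups did not overlap, and female plastic 1 lay below female gel 3. The change was 0.44 in female cells (SE 0.15, adjusted p = 0.0376, edgeR) and 0.63 in male cells (SE 0.15, adjusted p = 0.00495, edgeR). The female call was lost without female plastic 2, 3 or 4 or female gel 1, 2 or 4 (values 0.43, 0.35, 0.43, 0.38, 0.45 and 0.45, adjusted p 0.0697 to 0.124, edgeR) and with no filter on low counts (adjusted p = 0.0533).

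LOXL1, best known for elastin maintenance (chromosome 7, 59481410 to 59505161), was not called in either sex. It had 57, 119, 99.5 and 61.3 CPM on female plastic, against 53.1, 87.8, 69.6 and 68.7 CPM on female gel. It had 90.9, 104, 89.1 and 66.2 CPM on male plastic, against 68.9, 31.6, 77.1 and 51.0 CPM on male gel. Both pairs of groups overlapped. The change was 0.27 in female cells (95% interval -0.29 to 0.83, adjusted p = 0.508, edgeR) and 0.61 in male cells (0.05 to 1.18, adjusted p = 0.104, edgeR). With the replicate number as a block the male change was 0.66 (SE 0.21) and passed the threshold (adjusted p = 0.0338, edgeR), and without male gel 2, the library of lowest depth and lowest LOXL1, it was 0.41 (adjusted p = 0.248, edgeR).

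**Figure D2:**
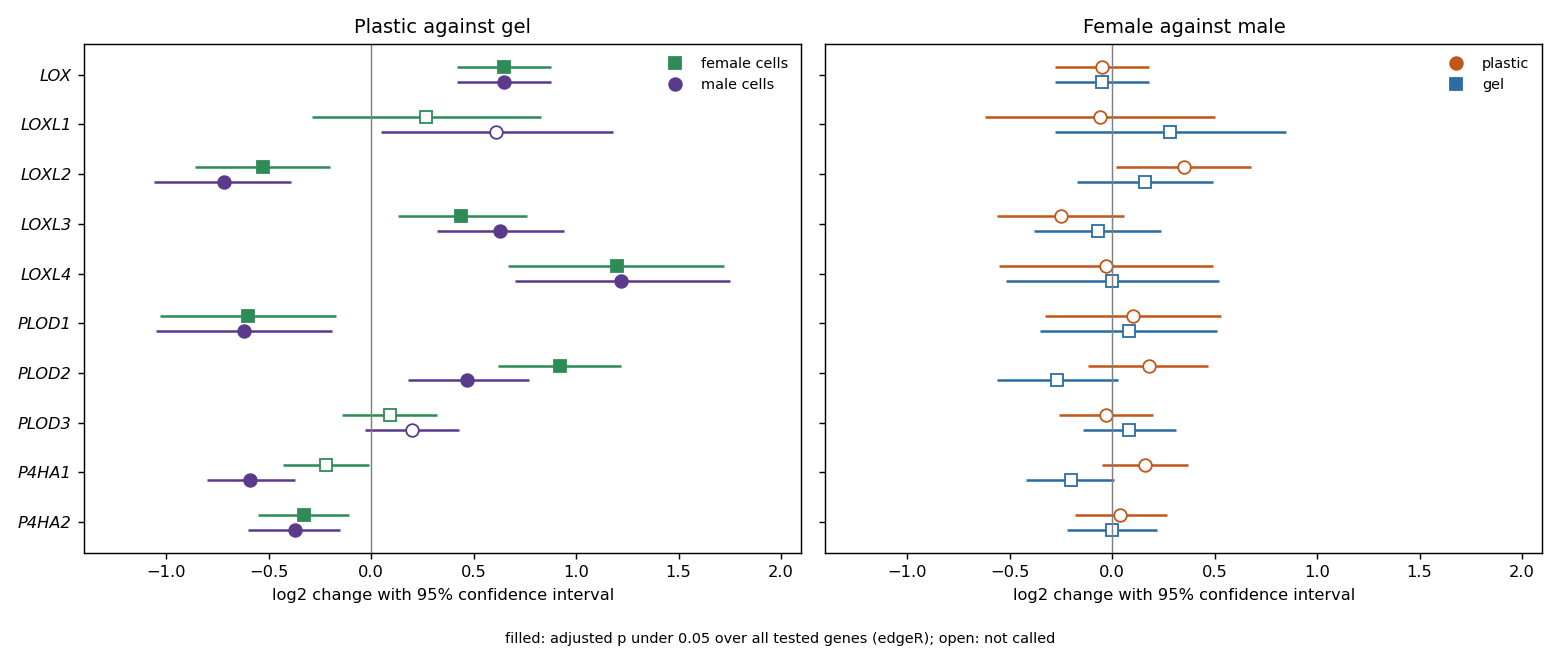
Log2 change with 95% interval of each enzyme gene for plastic against gel (left, female and male cells) and for female against male (right, on plastic and on gel). Filled symbols are called (adjusted p under 0.05), open symbols are not: on the left 7 of 10 are filled in female and 8 of 10 in male cells, on the right 0.

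Among the lysyl hydroxylases, PLOD2 rose and PLOD1 fell. PLOD2, which hydroxylates the telopeptide lysines that lead to pyridinoline crosslinks (chromosome 13, 86402673 to 86513167), had 429, 543, 562 and 571 CPM on female plastic, against 236, 289, 288 and 300 CPM on female gel. It had 534, 422, 437 and 467 CPM on male plastic, against 366, 406, 251 and 316 CPM on male gel. No gel library reached the lowest plastic library of its sex, but male gel 2, at 406 CPM, lay close to male plastic 2, at 422 CPM. The change was 0.92 in female cells (SE 0.14, adjusted p = 0.00016, edgeR) and 0.47 in male cells (SE 0.14, adjusted p = 0.0198, edgeR). Female PLOD2 kept its call in all alternatives run, whereas the male call was lost without male plastic 1 (0.40, adjusted p = 0.0697, edgeR) or male gel 3 (0.36, adjusted p = 0.0572, edgeR).

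PLOD1, which acts on lysines within the triple helix (chromosome 6, 71987938 to 72019712), had 226, 183, 173 and 174 CPM on female plastic, against 274, 243, 247 and 382 CPM on female gel. It had 169, 167, 171 and 200 CPM on male plastic, against 282, 166, 244 and 392 CPM on male gel. Replicate 4 was highest on gel in both sexes, and male gel 2 stood at the level of the plastic libraries. The change was -0.60 in female cells (SE 0.20, adjusted p = 0.0403, edgeR; lower in 4 of 4 replicates) and -0.62 in male cells (SE 0.20, adjusted p = 0.0339, edgeR; lower in 3 of 4). The female call was lost without any of 8 libraries (female plastic 2, 3 or 4, female gel 1 or 4, male plastic 1, 2 or 3), with values of -0.62 to -0.43 and adjusted p up to 0.146. The male call was lost without male plastic 1, 2 or 3 or male gel 1 or 4, with values of -0.60 to -0.39 and adjusted p up to 0.132 in edgeR, with limma-voom (adjusted p = 0.0547) and in a fit of the 8 male libraries (-0.61, adjusted p = 0.0727).

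PLOD3, which also glycosylates hydroxylysine (chromosome 3, 8911787 to 8919525), had the smallest change of the 10 enzymes in each sex. It ranged from 137 to 170 CPM on female plastic against 133 to 155 CPM on female gel, and from 150 to 161 CPM on male plastic against 107 to 150 CPM on male gel. The change was 0.09 in female cells (95% interval -0.14 to 0.32, adjusted p = 0.599, edgeR) and 0.20 in male cells (-0.03 to 0.43, adjusted p = 0.19, edgeR). The male groups did not overlap, male gel 1 at 150.1 CPM lying just under male plastic 4 at 150.2 CPM, and 28.9% of all tested genes likewise had male groups without overlap.

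Both prolyl 4-hydroxylase subunits had lower means on plastic in each sex. P4HA1, the subunit found in most cell types (chromosome 14, 75827207 to 75919121), had 471, 461, 402 and 487 CPM on female plastic, against 518, 521, 538 and 547 CPM on female gel. It had 405, 417, 419 and 388 CPM on male plastic, against 531, 752, 578 and 584 CPM on male gel. The groups did not overlap in either sex, and male gel 2 stood above the rest. The change was -0.22 in female cells (SE 0.10, adjusted p = 0.124, edgeR), which was not called, and -0.59 in male cells (SE 0.10, adjusted p = 0.000431, edgeR), which was. Without male gel 2 the female value was -0.22 with an SE of 0.07 and passed the threshold (adjusted p = 0.0281, edgeR), since the groups share 1 estimate of the spread.

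P4HA2, a subunit prominent in cartilage and bone (chromosome 2, 134502210 to 134595444), had 288, 251, 219 and 237 CPM on female plastic, against 304, 315, 272 and 358 CPM on female gel. It had 255, 249, 219 and 241 CPM on male plastic, against 318, 295, 285 and 349 CPM on male gel. Replicate 3 was lowest and replicate 4 highest of the gel libraries in both sexes. The change was -0.33 in female cells (SE 0.11, adjusted p = 0.0322, edgeR) and -0.37 in male cells (SE 0.11, adjusted p = 0.0163, edgeR). The female call was lost without female plastic 2, 3 or 4 or female gel 2 or 4 (values -0.33 to -0.26, adjusted p 0.0625 to 0.109) and in a fit of the 8 female libraries (adjusted p = 0.066). The male call was lost without male plastic 3 (-0.33, adjusted p = 0.0585) or male gel 4 (-0.31, adjusted p = 0.0514).

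Over the 10 enzymes, the plastic and gel libraries did not overlap for 5 in female cells (LOX, LOXL4, PLOD1, PLOD2 and P4HA1), where 27.7% of tested genes did not. In male cells they did not overlap for 8, all but LOXL1 and PLOD1, where 28.9% of tested genes did not.

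Because related enzymes moved in opposite directions, their ratios within a library differed between surfaces. These are ratios of counts, not adjusted for transcript length, so they compare libraries and not the abundance of the enzymes. LOX counts per LOXL2 count were 0.307, 0.501, 0.604 and 0.432 on female plastic, against 0.197, 0.190, 0.243 and 0.158 on female gel. They were 0.627, 0.577, 0.644 and 0.485 on male plastic, against 0.230, 0.244, 0.272 and 0.171 on male gel. All 8 plastic libraries lay above all 8 gel libraries. PLOD2 counts per PLOD1 count were 1.90, 2.98, 3.25 and 3.29 on female plastic, against 0.863, 1.19, 1.17 and 0.786 on female gel, and 3.17, 2.53, 2.56 and 2.34 on male plastic, against 1.3, 2.45, 1.03 and 0.807 on male gel. Male gel 2 was the only gel library within the plastic range. The ratio of P4HA1 to P4HA2 averaged 1.84 ± 0.17 on female plastic and 1.72 ± 0.188 on female gel, and 1.70 ± 0.148 on male plastic and 1.98 ± 0.414 on male gel (SD, n = 4 each), with overlap in both sexes. The ratios follow from the levels above and were not tested.

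**Figure D3:**
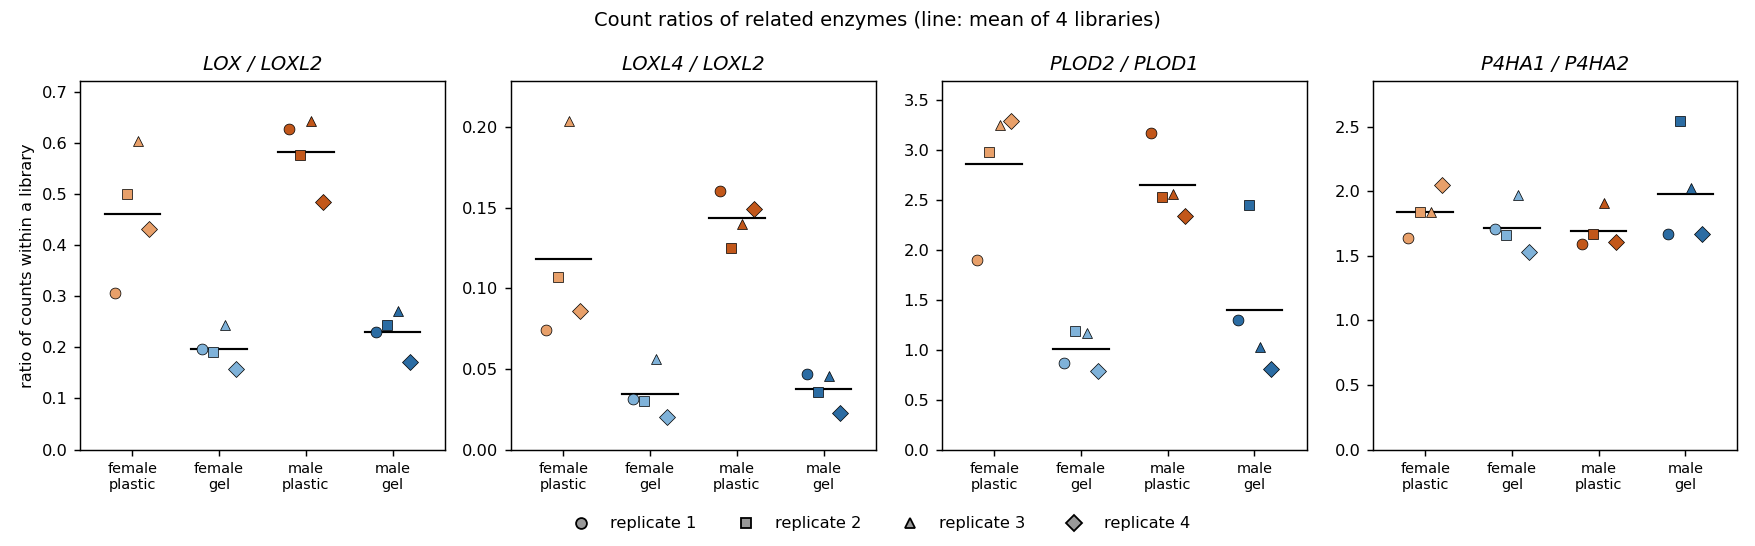
Count ratios of related enzyme genes in each of the 16 libraries, on axes from 0, with symbols for the replicate number and lines for the mean of 4 libraries. LOX per LOXL2 and LOXL4 per LOXL2 part the surfaces in each sex, PLOD2 per PLOD1 does so except for male gel 2, and P4HA1 per P4HA2 overlaps.

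Female and male cells were compared on each surface, and 0 of the 10 enzymes were called by edgeR on plastic or on gel, where 0.124% and 0.103% of tested genes were. DESeq2 and limma-voom also called 0 of 10 on each surface. On plastic, LOXL2 averaged 882 ± 206 CPM in female and 690 ± 37.3 CPM in male cells (SD, n = 4 each), a log2 difference of 0.35 (95% interval 0.02 to 0.68) with an unadjusted p of 0.037 and an adjusted p of 0.98 in edgeR. That was the 1 enzyme with an unadjusted p under 0.05, on a surface where 1.95% of tested genes had one. Female plastic 1, at 1169 CPM, was the highest of these libraries. On gel, P4HA1 averaged 531 ± 13.8 CPM in female and 611 ± 96.8 CPM in male cells, a difference of -0.20 (-0.42 to 0.01, adjusted p = 0.852, edgeR). PLOD2 on gel averaged 278 ± 28.4 CPM in female and 335 ± 66.8 CPM in male cells, a difference of -0.27 (-0.56 to 0.03, adjusted p = 0.852, edgeR). For LOX the intervals of female minus male were -0.28 to 0.18 on each surface, and for LOXL4 -0.55 to 0.49 on plastic and -0.52 to 0.52 on gel.

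The difference of the surface changes, female minus male, was tested for every gene, and 0 of 14530 passed in edgeR, DESeq2 or limma-voom, with 4.36% at an unadjusted p under 0.05 in edgeR. PLOD2 (0.45, SE 0.20, unadjusted p = 0.0376, adjusted p = 0.767) and P4HA1 (0.36, SE 0.14, unadjusted p = 0.0204, adjusted p = 0.767) were the 2 enzymes at an unadjusted p under 0.05 in edgeR. Male gel 2 held the highest value of its group for both. Without it the differences were 0.34 (SE 0.19) for PLOD2 and 0.25 (SE 0.11) for P4HA1, and neither was called. The SE was then also smaller. The call of P4HA1 in male cells and not in female cells was therefore not shown to be a difference between the sexes. For LOX the difference was 0.00 (95% interval -0.32 to 0.33) and for LOXL4 -0.03 (-0.76 to 0.71).

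The replicates differed within groups, and part of that spread ran across genes. Male gel 2 had the lowest LOXL1, LOXL2, LOXL3, PLOD1 and PLOD3 and the highest PLOD2 and P4HA1 of the male gel group. On plastic, female 1, female 4 and male 4 had the lowest LOX, at 359, 362 and 355 CPM against 410 to 421 CPM in the other 5 plastic libraries. They also had the lowest LOXL1, at 57, 61.3 and 66.2 CPM against 89.1 to 119 CPM. On gel neither gene parted these 3 replicates from the rest. LOX had 243, 214 and 228 CPM there against 229 to 298 CPM in the other 5 gel libraries. LOXL1 had 53.1, 68.7 and 51.0 CPM against 31.6 to 87.8 CPM. The endothelial marker sums of these 3 replicates were the highest on each surface. On plastic they were 580, 444 and 339 CPM against 200 to 280 CPM in the other 5. On gel they were 249, 287 and 273 CPM against 156 to 206 CPM. CDH5, the endothelial cadherin, had 174, 88.8 and 87.9 CPM in these plastic libraries against 21.0 to 42.3 CPM in the other 5. VWF, another endothelial gene, did not follow: its lowest plastic levels were 0.253 CPM in female plastic 4 and 0.254 CPM in male plastic 4, with 1.69 CPM in female plastic 1 and 0.352 to 2.56 CPM in the other 5. The part of these markers in the levels of LOX and LOXL1 was not tested. Without these 3 replicates on both surfaces, LOX changed by 0.65 in female and 0.66 in male cells and LOXL4 by 1.15 and 1.05, all called. That fit kept only replicates 2 and 3 of each female group and 1, 2 and 3 of each male group. A call lost in it cannot be told apart from an effect of fewer libraries. In the same fit 3 enzymes were called higher and 1 lower in female cells, and 3 higher and 2 lower in male cells. LOXL3 (0.52, adjusted p = 0.123), PLOD1 (-0.45, adjusted p = 0.183) and P4HA2 (-0.31, adjusted p = 0.163) lost their calls in female cells. PLOD1 (-0.44, adjusted p = 0.0765), PLOD2 (0.46, adjusted p = 0.0677) and P4HA2 (-0.30, adjusted p = 0.0657) lost theirs in male cells (edgeR).

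**Figure D4:**
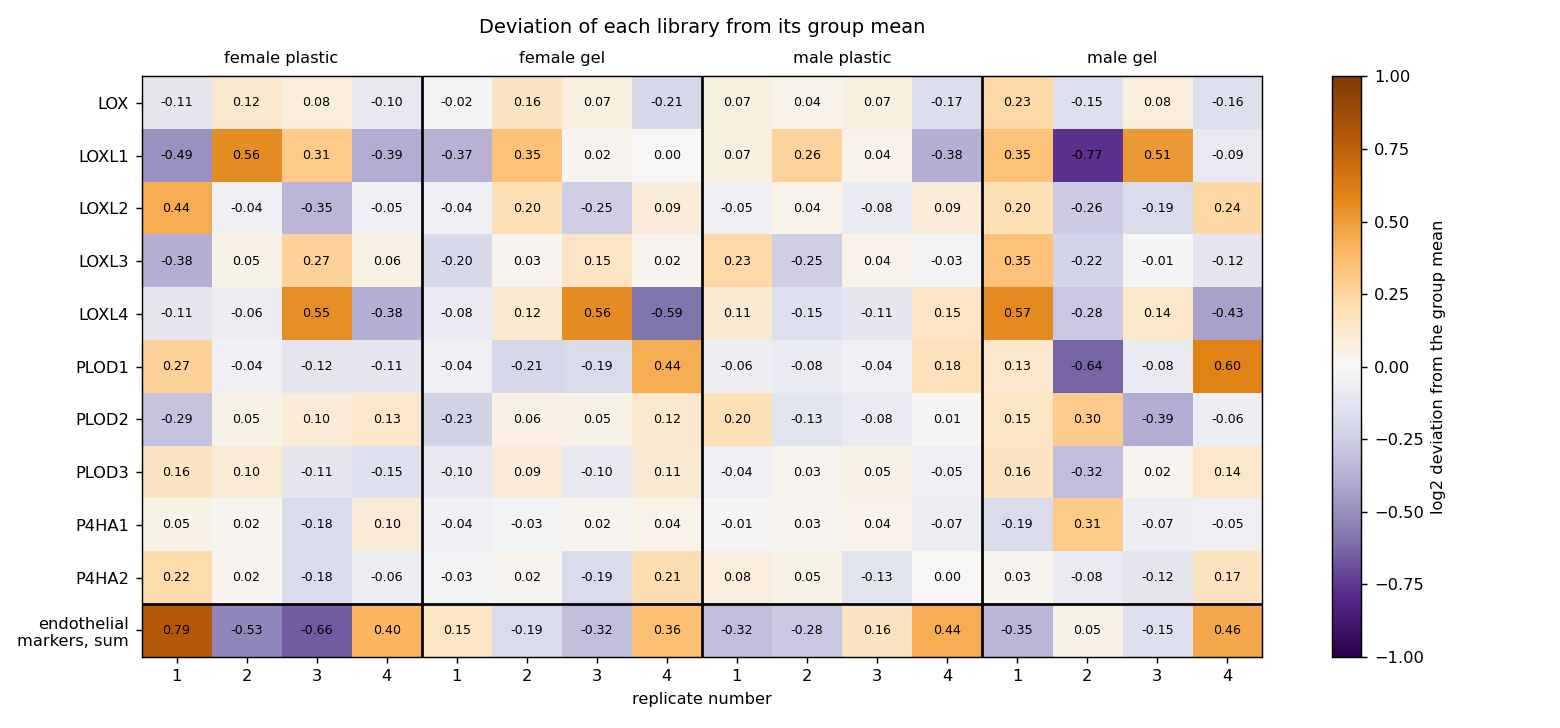
Log2 deviation of each library from its group mean for the 10 enzyme genes, with the summed endothelial markers in the bottom row, for female plastic, female gel, male plastic and male gel. Purple is below and orange above the group mean. Replicates 1 and 4 of female plastic and 4 of male plastic are below the mean for LOX and LOXL1 and above it for the endothelial sum, and male gel 2 is at -0.77 for LOXL1 and 0.30 for PLOD2.

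The rest of the collagen processing machinery, proteins of the endoplasmic reticulum that fold, modify and export procollagen, had few called genes. Of 21 tested, 1 was called higher and 2 lower in female cells, and 1 higher and 1 lower in male cells, against the 12.7% and 11.3% of tested genes in female and the 12.9% each way in male cells given above. The higher one was MIA3, a receptor that loads procollagen into transport vesicles (0.53, SE 0.08, in female and 0.28, SE 0.08, in male cells). PPIB, a prolyl isomerase, fell (-0.47, SE 0.09, in female and -0.38, SE 0.09, in male cells), and P3H1, a prolyl 3-hydroxylase, fell in female cells (-0.51, SE 0.12; in male cells -0.32 with adjusted p = 0.0536, edgeR). P4HB, the partner of the P4HA subunits, had changes of -0.39 (95% interval -0.75 to -0.04) in female and -0.07 (-0.42 to 0.29) in male cells and was not called, though the female change passed without male gel 2 (-0.40, adjusted p = 0.0208, edgeR). The male MIA3 call was lost without male plastic 1 or 4 or male gel 3 or 4 (0.23 to 0.27, adjusted p 0.0529 to 0.0725) and in a fit of the 8 male libraries (0.29, adjusted p = 0.0504). P3H1 in male cells was called without male gel 2 (-0.44, adjusted p = 0.00289) or female plastic 4 (-0.32, adjusted p = 0.0454), by DESeq2 (-0.31, adjusted p = 0.0445) and with a filter at 1 CPM (-0.33, adjusted p = 0.0489).

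Of 8 genes that trim procollagen or aid its trimming, 1 was called higher and 3 lower in female cells, and 2 higher and 3 lower in male cells (tested genes overall: 12.7% higher and 11.3% lower in female cells, 12.9% each way in male cells). ADAMTS2, the main procollagen N-proteinase, changed by 0.65 (SE 0.22) in female and 0.87 (SE 0.22) in male cells, and ADAMTS14, of the same class, by 1.05 (SE 0.33) in male cells. TLL1 (0.49, SE 0.18, in female and 0.45, SE 0.18, in male cells) and TLL2 (-1.03, SE 0.41, and -0.73, SE 0.41) were not called. PCOLCE (-1.03, SE 0.21, in female and -0.71, SE 0.21, in male cells) and PCOLCE2 (-0.45, SE 0.12, and -0.39, SE 0.12) enhance C-proteinases such as BMP1 (-0.52, SE 0.14, and -0.42, SE 0.14). BMP1 also activates the LOX proenzyme. With the replicate number as a block the male BMP1 change was -0.39 and was not called (adjusted p = 0.0587, edgeR), nor was it with limma-voom (-0.39, adjusted p = 0.0535) or in a fit of the 8 male libraries (-0.40, adjusted p = 0.0978). That 8-library fit did not call male ADAMTS14 either (1.06, adjusted p = 0.0831). Leaving out single libraries ended the female ADAMTS2 call for female plastic 1, 2 or 4, female gel 2 or 3 and male plastic 1, 2 or 3 (0.46 to 0.66, adjusted p 0.0514 to 0.119). In male cells it ended the calls of ADAMTS14 (male plastic 1, 2 or 4 or male gel 1, 0.92 to 1.05, adjusted p 0.0543 to 0.0758) and of PCOLCE (male plastic 1 or 4 or male gel 1 or 3, -0.67 to -0.59, adjusted p 0.0574 to 0.0661). It likewise ended the male calls of PCOLCE2 (male plastic 4 or male gel 3, -0.34 and -0.36, adjusted p 0.0759 and 0.0564) and of BMP1 (any male library but male gel 2, -0.44 to -0.34, adjusted p 0.056 to 0.0989). Female ADAMTS14 was called without male gel 2 (0.78, adjusted p = 0.0159) and in a fit of the 8 female libraries (0.78, adjusted p = 0.0192).

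Of 13 matrix partners of the lysyl oxidases and genes of copper supply, 6 were called higher in each sex, and 1 lower in female and 2 lower in male cells. Over all tested genes, 12.7% were called higher and 11.3% lower in female cells and 12.9% each way in male cells. ELN, the elastin precursor and a substrate of LOX and LOXL1, averaged 402 CPM on female plastic and 57.5 CPM on female gel, and 404 CPM on male plastic and 46.4 CPM on male gel (log2 change 2.81, SE 0.46, and 3.12, SE 0.46). FMOD, a small proteoglycan that binds collagen and LOX, rose by 1.07 (SE 0.14) in female and 1.17 (SE 0.14) in male cells. FBN1, the microfibril protein, rose by 0.92 (SE 0.14) and 0.81 (SE 0.14), and FN1, fibronectin, by 0.61 (SE 0.09) and 0.56 (SE 0.09). POSTN, a matricellular protein that brings BMP1 and LOX processing together, changed by -2.27 (SE 0.63) in female and -2.36 (SE 0.63) in male cells, and without female gel 1 the female change was -1.34 and not called (adjusted p = 0.0853, edgeR). ATP7A, which pumps copper into the secretory pathway, had a change of -0.13 (SE 0.13, adjusted p = 0.525, edgeR) in female cells and of -0.39 (SE 0.13, adjusted p = 0.0352, edgeR) in male cells, where it was called. The male ATP7A call was lost without any male plastic library or male gel 2 (-0.40 to -0.21, adjusted p 0.0637 to 0.0911), and in a fit of the 8 male libraries (-0.38, adjusted p = 0.0944).

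Of 11 substrate collagen chains in the table, 6 were called higher and 1 lower in female cells, and 7 higher and 1 lower in male cells (tested genes overall: 12.7% higher and 11.3% lower in female cells, 12.9% each way in male cells). COL4A1 and COL4A2, the basement membrane chains, changed by 1.49 (SE 0.13) and 1.09 (SE 0.17) in female cells and by 1.5 (SE 0.13) and 1.18 (SE 0.17) in male cells. COL5A1 and COL5A2, chains of the fibril-nucleating collagen V, changed by 1.06 (SE 0.15) and 0.71 (SE 0.11) in female cells and by 1.13 (SE 0.15) and 0.56 (SE 0.11) in male cells. LOXL2, whose known substrates include collagen IV, was thus called lower where COL4A1 and COL4A2 were called higher. COL6A3, of the microfibrillar collagen VI, changed by -0.55 (SE 0.18) in female and -0.61 (SE 0.18) in male cells. The female COL6A3 call was lost without female plastic 1 or 4 or female gel 2, 3 or 4 (-0.53 to -0.46, adjusted p 0.0631 to 0.0955), and the male one without male plastic 4 or male gel 1 (-0.53 and -0.48, adjusted p 0.0584 and 0.0585). A fit of the 8 female libraries did not call COL6A3 (-0.56, adjusted p = 0.0511). COL1A1 is named outside the naming rule, after its values were seen, as the main fibrillar substrate: its change was 0.37 (SE 0.16, adjusted p = 0.113, edgeR) in female cells and 0.45 (SE 0.16, adjusted p = 0.0482, edgeR) in male cells. The male COL1A1 call was lost without any 1 of 12 libraries (0.34 to 0.50, adjusted p up to 0.134), with no filter on low counts (0.46, adjusted p = 0.0767) and in a fit of the 8 male libraries (0.47, adjusted p = 0.059). The female change passed without female gel 2 (0.50, adjusted p = 0.0375).

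PLOD1, PLOD2, P4HA1, P4HA2, LOX and LOXL2 are known as hypoxia-inducible genes in other cells, so a chosen list of other such genes was set beside them. Of 21 tested, 1 was called higher and 6 lower in female cells, with 14 not called. In male cells 2 were called higher and 7 lower, with 12 not called. The shares of all tested genes were 12.7% higher and 11.3% lower in female cells and 12.9% each way in male cells. PDK1, a pyruvate dehydrogenase kinase, rose by 0.94 (SE 0.11) in female and 0.80 (SE 0.11) in male cells. PFKFB4 rose by 0.68 (SE 0.17) in male cells and was not called in female cells (0.20, SE 0.16). NDRG1 changed by -0.86 (SE 0.12) in female and -0.9 (SE 0.12) in male cells. DDIT4, an inhibitor of mTOR signalling, changed by -1.47 (SE 0.16) and -1.44 (SE 0.16), EGLN3, an oxygen-sensing hydroxylase, by -1.57 (SE 0.21) and -1.71 (SE 0.21), and ANGPTL4, an inhibitor of lipoprotein lipase, by -1.95 (SE 0.26) and -1.93 (SE 0.26).

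**Figure D5:**
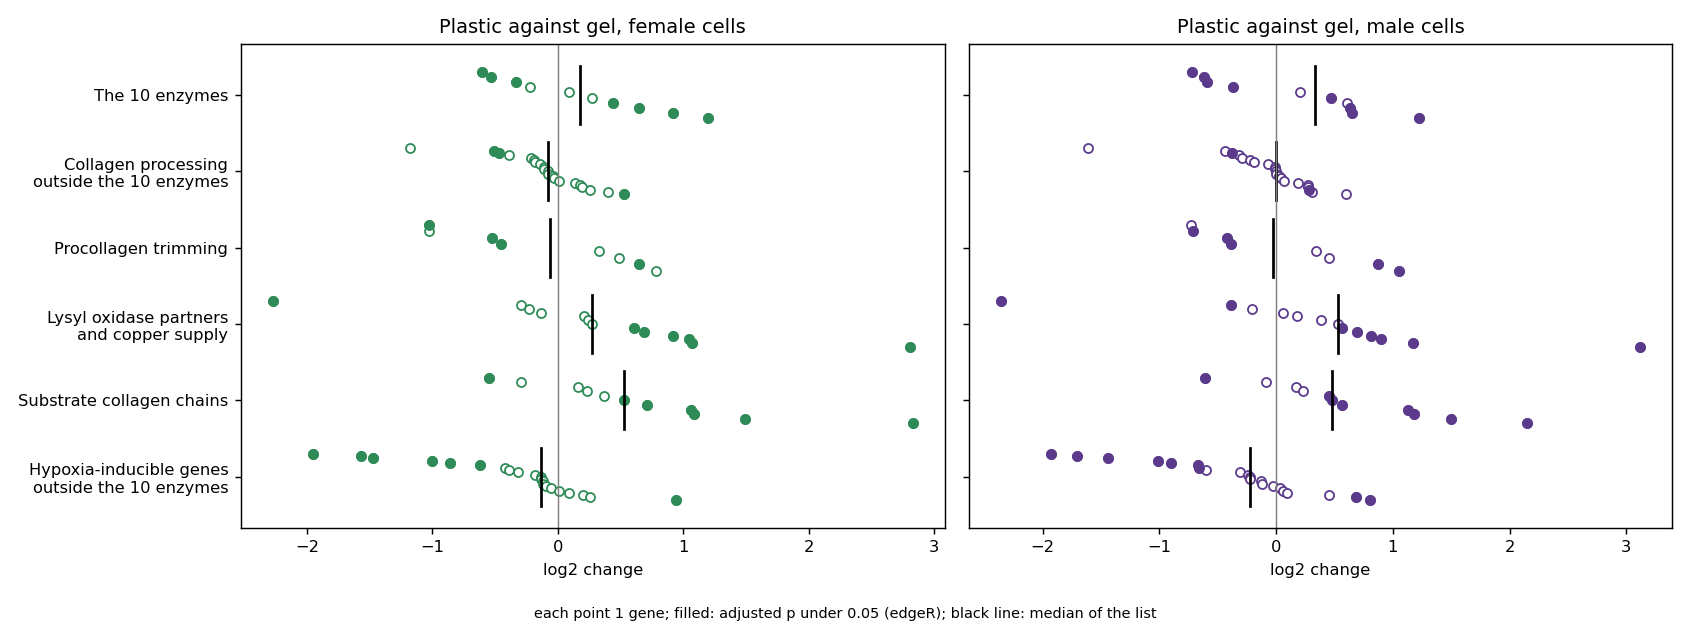
Log2 change on plastic against gel of every tested gene of the 10 enzymes and the 5 pathway lists, in female cells (left) and male cells (right). Each point is a gene, filled where called at an adjusted p under 0.05, and black lines are list medians, which for the 10 enzymes are 0.18 in female and 0.34 in male cells.

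The genes closest in pattern to each enzyme were found by the root mean square difference of log2 CPM, centred on each gene's mean, over the 16 libraries, which share surface and replicates. Tested genes whose symbol starts with LOC followed by a number were left out of the search. The closest to LOX were BCOR, LENG9 and WDR1, at 0.084, 0.085 and 0.085, where the median over the genes searched was 0.468. GPI, a glycolytic enzyme, was the closest to PLOD1 at 0.083 and the second closest to LOXL2 at 0.169, and WBP1L was among the closest 3 of both. The closest to LOXL4 were CRIM1, PKDCC and TLN1 (0.222 to 0.243), to PLOD2 PPP2R3A, FOXP1 and TAB2 (0.132 to 0.142), and to P4HA1 SPTLC1, CYP20A1 and SMARCC1 (0.081 to 0.083). None of the closest 3 genes of any enzyme was another of the 10.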

How the data were processed

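The values deposited by the authors are whole-number read counts for each gene, not normalized. Per the submitters' processing notes, reads passed FastQC 0.11.5 and Trimmomatic 0.36, and HISAT2 2.1.0, SAMtools 1.3.1 and featureCounts were used with Sscrofa11.1. The version, strand and multi-read settings of featureCounts are not given in the sources used here, so reads shared between paralogs, or with overlapping genes on either strand, cannot be told apart. LOX, LOXL1, LOXL3, PLOD3, P4HA1 and P4HA2 each overlap another annotated gene, of which HTRA2 (mean 378 counts, LOXL3 2850) and ZNHIT1 (822, PLOD3 3533) had the most counts. RNA was polyA RNA, isolated with RNeasy Micro and made into KAPA mRNA HyperPrep libraries, per the labels.

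Left out were 24 entries without a gene name (0.169% of counts). The other 29552 names matched RefSeq (Sscrofa11.1), the source of the coordinates. edgeR's filterByExpr kept 14530 of the 22139 genes that had any count, all 10 enzymes among them. edgeR 4.0.16 (R 4.3.3) fitted 4 group means over 16 libraries with TMM scaling and 12 residual degrees of freedom. TMM factors were 0.896 to 0.984 on plastic and 1.048 to 1.124 on gel, so the scaling raised plastic levels relative to gel. No fit was run without scaling. CPM are scaled by TMM, and exon lengths were not used here, so levels are not compared between genes. The enzymes and lists were chosen with earlier results of these data known. Named are the 10 enzymes and, per pathway list, up to 4 called genes per direction by adjusted p. The higher of the group means of such a gene had to reach 5 CPM. Of the 3 genes of closest pattern per enzyme, all are named for LOX, LOXL4, PLOD2 and P4HA1 and a part for LOXL2 and PLOD1. P4HB, TLL1, TLL2, CDH5 and VWF were added after their values were seen, as was the female value of genes named in male cells. So were the markers LAPTM5, CD14, CD68, COL3A1, DCN and LUM. Among list genes the text describes a part.

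Libraries of a group differed beyond counting noise (chi-square per degree of freedom 8.168 to 68.06 over 24 pairs). The labels call them biological replicates and do not say whether numbers mark the same pig on both surfaces. Deviations of same-numbered libraries correlated by 0.13 to 0.49 (log2 CPM, prior count 2; 0.09 to 0.57 with 2 CPM added before the log), and each of the 16 was closest to the library of its own number, so the numbers were taken to pair them, which rests on the first scale. The main fit has no replicate block, so its p-values are unpaired. They set each change against the spread between these libraries. The fits were repeated with DESeq2 1.42.0, limma-voom (limma 3.58.1), RLE scaling, other filters, 8-library fits, the replicate block and leaving out libraries. The test was checked on simulated counts. Figures used matplotlib 3.10.9 in Python 3.11.15.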

Additional observations from a re-analysis of the deposited data

Results flagged for a closer look

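In 2 of 40 sets of 4 libraries (10 enzymes in 4 groups), 1 library stood far from the other 3 by Dixon's criterion (the gap to the nearest library over the whole range), and chance gives about 1 in 20. Both were male plastic 4, with 355 CPM of LOX against 410 to 419 CPM in male plastic 1 to 3, and with 199.8 CPM of PLOD1 against 167 to 171 CPM.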

How the results depend on the processing

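Counts of called enzymes between surfaces stayed within 1.5 times under RLE scaling, DESeq2, limma-voom, both other filters, 8-library fits and the replicate block. RLE scaling shifted the median of all genes by at most 0.026. Leaving out single libraries gave 3 to 4 enzymes called higher in each sex, 0 to 4 called lower in female cells (0 without female plastic 2, 3 or 4 or female gel 4, 1 without female gel 2) and 2 to 4 called lower in male cells (2 without male plastic 3 or male gel 4). Without female 1, female 4 and male 4 on both surfaces, chosen after seeing the data, the enzymes called lower were 1 in female and 2 in male cells, and all genes called in female cells were 1968 against 3476. Among the pathway genes named, PPIB and BMP1 in each sex, P3H1 and COL6A3 in female cells and MIA3, ATP7A, ADAMTS14 and COL1A1 in male cells lost their calls in that fit. It kept only replicates 2 and 3 of each female group. Another unplanned fit left out male gel 2 and female plastic 4. There 3 enzymes were called higher and 3 lower in female cells, and 4 each way in male cells. COL6A3 in female cells and ATP7A and COL1A1 in male cells lost their calls in it. ADAMTS14, P4HB and COL1A1 in female cells and P3H1 in male cells gained one. Over all genes, single omissions gave 2780 to 4444 called genes in female and 2859 to 3961 in male cells. The paired fit with the replicate block called 4011 genes in female and 4319 in male cells, added LOXL1 in male cells and changed no other call of the 10 enzymes. LOX and LOXL4 in both sexes, LOXL2, LOXL3 and P4HA1 in male cells and PLOD2 in female cells kept their calls under every alternative run, and no enzyme reversed a called direction.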
